A study of Mus musculus with 6 samples.

Results

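The CCN family is a small group of secreted, cysteine-rich matricellular proteins, which sit in the extracellular matrix and act on cells without being structural fibres. Its members were taken from the deposited table by gene name: Cyr61 (now Ccn1), Ctgf (Ccn2), Nov (Ccn3), Wisp1 (Ccn4) and Wisp2 (Ccn5). All 5 were found among 24413 genes, and all 5 were above the level at which genes were tested. The family was chosen by the measured FPKM difference between the media, with that difference already known, so its own differences are given as a description without a test.

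The libraries were bulk RNA-seq of Achilles tendon cells from 3 male mice aged 12 weeks carrying Tppp3ECE/+;R26RtdT-CreERT2;ScxGFP, a Tppp3-driven allele with a tdT reporter and a green reporter for the tendon factor Scx. Sorting used GFP and tdT gates, and the labels call the cells Tppp3+. The 3 control libraries came from cells given 1% FBS for 24 h. The 3 conditioned libraries came from cells given, for the same 24 h, medium that cultures of dorsal root ganglia (DRG), the sensory ganglia beside the spinal cord, had conditioned; every library has the same genotype. The ganglia came from 3 male C57BL/6J mice aged 12 weeks, were grown for 4 to 5 days with antimitotic reagents at 20 µM, and were then given αMEM with 1% FBS, which was collected daily, filtered and frozen. The control medium is not described as having passed through a culture. The labels tie no library to an animal, so every error below measures the spread between libraries, part of which may be technical.

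CCN proteins are built from the same modules in the same order: a signal peptide, a module like that of the IGF-binding proteins (IGFBP), a von Willebrand type C module, a thrombospondin type 1 module and a cystine-knot carboxy-terminal module, which Wisp2 lacks. They bind integrins, heparan sulfate proteoglycans and other matrix proteins. Cyr61 and Ctgf are textbook targets of YAP and TAZ with their DNA-binding partners, the TEAD factors, and of serum response factor and TGF-beta, while Wisp1 and Wisp2 were named as Wnt-induced genes. In tendon and other connective tissue Ctgf is known for its link to matrix production, and Nov is often described as opposing it.

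The exon layout shows the shared plan. In the GENCODE M21 annotation of mm10, Cyr61 lies on chromosome 3 from 145646976 to 145649981 on the minus strand. Ctgf lies on chromosome 10 from 24595442 to 24598683, Nov on chromosome 15 from 54745702 to 54754039, Wisp1 on chromosome 15 from 66891320 to 66923201 and Wisp2 on chromosome 2 from 163820861 to 163833146, all on the plus strand. The coding sequences of Cyr61, Ctgf, Nov and Wisp1 span 5 exons and encode 379, 348, 354 and 367 residues. The coding sequence of Wisp2 spans 4 exons and encodes 251 residues. Its last coding exon, of 218 bases, stands beside a coding exon 4 of 215 bases in Cyr61, 212 in Ctgf, 215 in Nov and 194 in Wisp1. Cyr61, Ctgf, Nov and Wisp1 have a further coding exon of 300, 294, 294 and 297 bases, and Wisp2 has none.

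**Figure D1:**
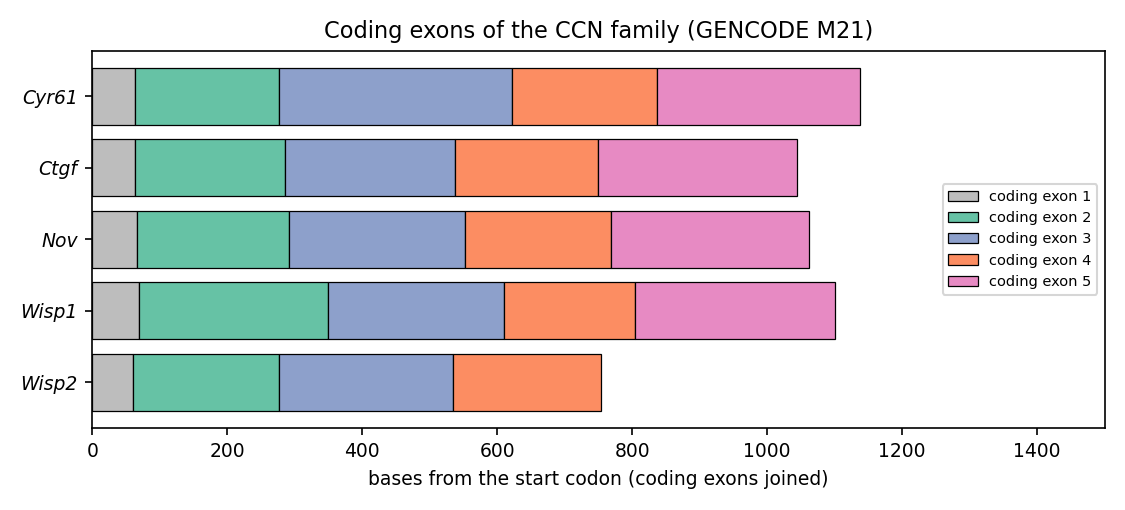
Coding exons of the 5 CCN genes drawn to scale and joined end to end from the start codon (x axis, bases), 1 bar per gene. Cyr61, Ctgf, Nov and Wisp1 have 5 coding exons; Wisp2 has 4 and ends at 753 bases.

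The table of RefSeq promoter windows (GRCm38.p6, from 250 bases before to 50 after a gene's start) held Cyr61. Its upstream stretch is shown because it carries a match to the TEAD motif of the pathway that Cyr61 is a standard readout for. The 250 bases before the start are chr3:145649986-145650235 on the minus strand, printed 5′ to 3′ with the match in capitals.
Cyr61: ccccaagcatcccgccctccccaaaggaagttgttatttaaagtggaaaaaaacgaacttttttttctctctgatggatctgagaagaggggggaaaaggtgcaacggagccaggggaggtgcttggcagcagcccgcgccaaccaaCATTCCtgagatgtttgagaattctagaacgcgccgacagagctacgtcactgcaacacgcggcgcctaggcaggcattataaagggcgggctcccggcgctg
The capitals mark the reverse strand of the TEAD motif GGAATG, from base -103 to base -98 before the start; 14.7% of the 32851 promoter windows hold this motif on either strand. A SMAD motif, CAGAC, lay from base 4 to base 8 after the start, and 49.6% of windows hold it. The motifs TGANTCA for AP-1 (7.81% of windows) and CTTTGA for TCF/LEF (16.0%), the motif of interferon-stimulated response elements (ISRE, 3.44%) and the CArG box of serum response factor (1.63%) had no match in the Cyr61 window. No motif was found to overlap another. Ctgf, Nov, Wisp1 and Wisp2 had no entry.

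Levels are FPKM, which are fragments adjusted for exon length and library size. For the members this length was the union of all annotated exons, such as 5565 bases over 6 transcripts for Wisp1 and 2869 over 1 for Nov. Which transcripts were expressed was not determined, so levels of different genes are set beside each other only with that limit. Differences are of log2(FPKM + 1), conditioned minus control, with the standard error (SE) of a limma fit across 11678 genes averaging 1 FPKM or more. Libraries held 18772497 to 26058344 fragments. Of the genes tested, 6.53% passed at an adjusted p below 0.05 (Benjamini-Hochberg over all genes tested), 4.04% as higher and 2.49% as lower with conditioned medium. The groups did not overlap for 26.0% of them. In these terms 1 of the 5 CCN genes, Nov, was past the threshold and 2 of 5, Nov and Ctgf, had groups that did not overlap. Because this contrast chose the family, nothing is read from those counts.

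Nov, a growth-restraining member known as CCN3, was the one whose level differed most between the media. Control replicates 1, 2 and 3 had 42.2, 43.9 and 45.2 FPKM, and conditioned replicates 1, 2 and 3 had 19.8, 19.7 and 18.6 FPKM. Every conditioned library was thus below every control library, by a distance many times the spread within either group. The control mean was 43.8 ± 1.53 FPKM and the conditioned mean 19.4 ± 0.643 FPKM (SD, n = 3 each), which is 44.2% of the control level. The log2 difference was -1.14 ± 0.04 SE, and only 44 of the 11678 genes tested (0.377%) had a larger absolute difference. In rank by level among all 24413 genes, Nov went from 979 in control to 2469 in conditioned medium.

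Ctgf, the member best known for its tie to fibrosis and matrix production, differed in the other direction and by far less. Its control replicates had 369, 350 and 376 FPKM, and its conditioned replicates 387, 390 and 409 FPKM. The groups did not overlap, but the highest control and the lowest conditioned library lay close together. The means were 365 ± 13.1 and 395 ± 12.0 FPKM (SD, n = 3 each), 108% of control, with a log2 difference of 0.12 ± 0.04 SE. A larger absolute difference was found for 31.9% of the genes tested.

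Wisp1, a Wnt-induced member that binds decorin and biglycan, was slightly lower on average with overlapping groups. It had 50.9, 48.9 and 44.6 FPKM in control replicates 1 to 3 and 45.7, 42.9 and 45.1 FPKM in conditioned replicates 1 to 3. Control replicate 3 lay within the range of the conditioned libraries. The means were 48.1 ± 3.20 and 44.6 ± 1.43 FPKM (SD, n = 3 each), and the log2 difference was -0.11 ± 0.05 SE.

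Cyr61, an angiogenic member and immediate early gene, had the highest level of the family and overlapping groups. It had 539, 582 and 582 FPKM in control replicates 1 to 3 and 585, 582 and 588 FPKM in conditioned replicates 1 to 3. Control replicate 1 stood below the other 5 libraries, which lay within a few FPKM of each other. The means were 568 ± 24.6 and 585 ± 3.02 FPKM (SD, n = 3 each). The log2 difference was 0.04 ± 0.04 SE; it was 0.01 without control replicate 1 and turned to -0.08 after quantile normalization.

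Wisp2, the member without the carboxy-terminal module, had nearly the same mean in both media. It had 489, 512 and 531 FPKM in control replicates 1 to 3 and 522, 513 and 513 FPKM in conditioned replicates 1 to 3. All conditioned values lay within the range of the controls. The means were 511 ± 20.9 and 516 ± 5.01 FPKM (SD, n = 3 each). The log2 difference was 0.02 ± 0.04 SE and turned to -0.01 without control replicate 1 and to -0.08 after quantile normalization.

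**Figure D2:**
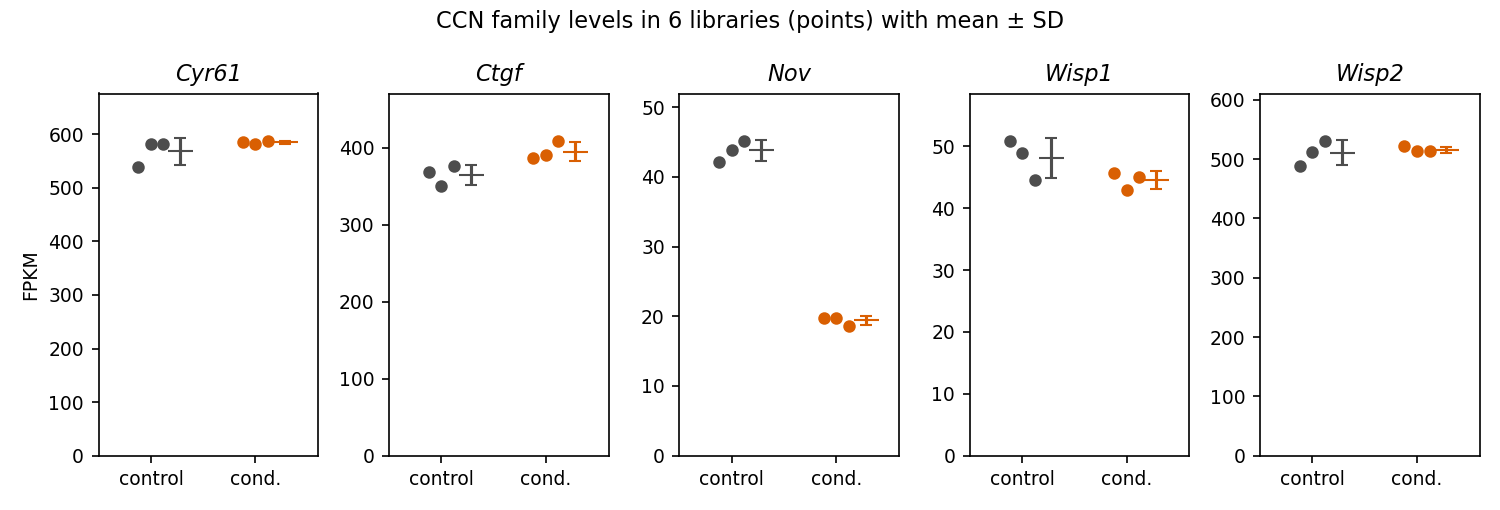
FPKM (y axis, from 0, own scale per gene) of the 5 CCN genes in 3 control and 3 conditioned (cond.) libraries, shown as points in replicate order, with mean ± SD beside them. Nov spans 42.2 to 45.2 FPKM in control libraries but 18.6 to 19.8 FPKM in conditioned ones, while the other 4 genes sit at like heights in both groups.

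Counting error was at most 3.07% of the level for the members, but it was not always small beside the spread between libraries. Cyr61, Ctgf and Wisp2 had 18588 to 30823 fragments per library, Wisp1 had 4496 to 7134 and Nov had 1064 to 3306. Fragment number alone gives Nov a coefficient of variation of 1.74% to 1.95% in control and 2.82% to 3.07% in conditioned libraries. The spread was 3.50% between control and 3.32% between conditioned libraries, so in the latter it was close to counting error. For Cyr61 the counting error was 0.570% to 0.673%, against a spread of 4.34% between control and 0.516% between conditioned libraries. The conditioned spread of Cyr61 lay below its counting error, so the small SD there is likely too low. The figures from fragment number cover counting error only. Wisp3 (Ccn6), the remaining CCN gene, had 0 to 5 fragments per library (0 to 0.152 FPKM) and was too low to compare. A count of 0 allows up to 3 fragments.

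In FPKM the members fell into a high and a low tier, and every ratio between genes depends on the exon lengths used. In control the order was Cyr61, Wisp2, Ctgf, Wisp1 and Nov. Cyr61 was above Wisp2 in every library, 1.11 ± 0.0223 times in control and 1.13 ± 0.0125 times in conditioned medium, and their ranges did not overlap within either group. Wisp2 was 1.40 ± 0.0676 times Ctgf in control and 1.31 ± 0.0479 times in conditioned medium. Ctgf in turn was 7.61 ± 0.703 times Wisp1 in control and 8.88 ± 0.341 times in conditioned medium. Wisp1 and Nov were the only neighbours whose ranges overlapped in control, at a ratio of 1.10 ± 0.110, with Nov above Wisp1 in control replicate 3. In conditioned medium they were apart, with Wisp1 at 2.30 ± 0.121 times Nov (all SD, n = 3). Among the 24413 genes, Cyr61, Wisp2 and Ctgf ranked 40, 45 and 74 by mean control level.

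Ratios within a library do not depend on a single factor that scales the whole library, though quantile normalization can change them. The ratio of Ctgf to Nov was 8.74, 7.98 and 8.31 in control replicates 1 to 3 and 19.6, 19.8 and 22.0 in conditioned replicates 1 to 3. The ratio of Cyr61 to Nov was 12.8 to 13.2 in control and 29.5 to 31.6 in conditioned libraries. Nov was thus lower relative to Cyr61 and Ctgf in each conditioned library than in any control library. These ratios reuse the values that chose the family, so they describe the difference again and are no separate support for it.

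The summed level of the family was almost the same in both media, 1535 ± 44.2 FPKM for control and 1560.6 ± 13.2 FPKM for conditioned libraries (SD, n = 3 each), 101.7% of control. Nov made up 2.85% ± 0.0183 of that sum in control and 1.24% ± 0.0504 in conditioned medium. The share of Ctgf was 23.8% ± 0.971 and 25.3% ± 0.599. Cyr61 (37.0% and 37.5%), Wisp2 (33.3% and 33.1%) and Wisp1 (3.14% and 2.85%) made up the rest in control and conditioned medium.

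**Figure D3:**
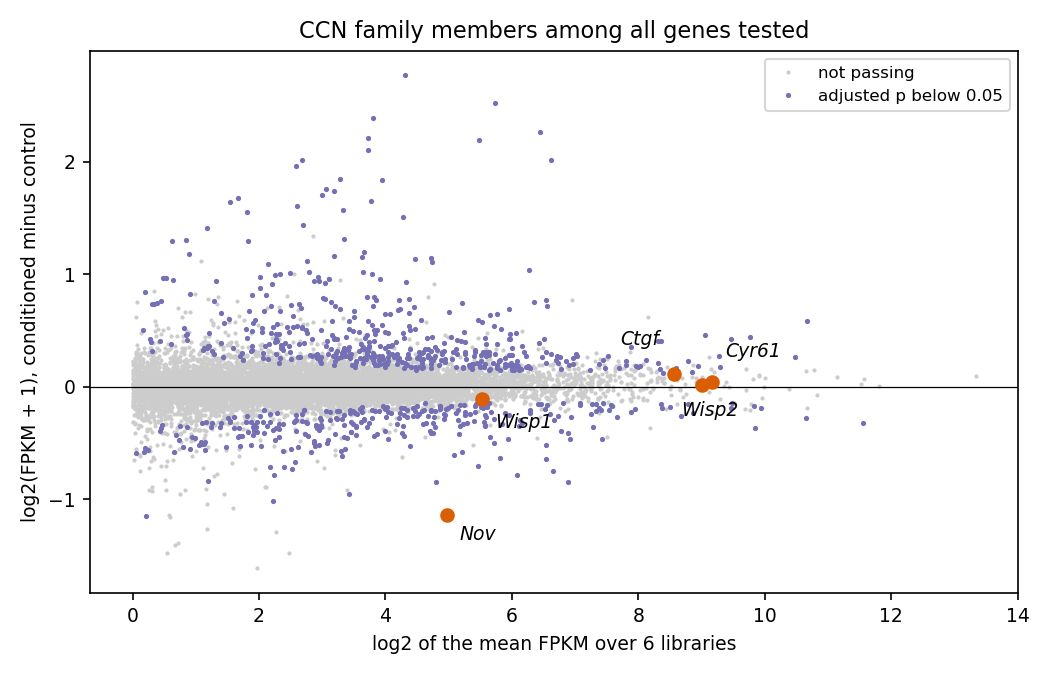
Log2 difference (conditioned minus control, y axis) against the log2 of the mean FPKM (x axis) for 11678 genes tested, with genes at an adjusted p below 0.05 in purple and the 5 CCN genes in orange. Nov lies at -1.14, apart from the other members, which lie between -0.11 and 0.12.

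The tested genes closest to each member were found by the root mean square distance of log2(FPKM + 1), centred per gene, over the 6 libraries, among genes averaging 5 FPKM or more. Such a distance ranks likeness over few libraries and, for Nov, mostly reflects the step between the groups. Nearest to Nov were Piezo2, a mechanically gated ion channel (distance 0.124), Igfbp2, an IGF-binding protein (0.150), and Sema3c, a secreted axon guidance protein (0.181). Piezo2 had 15.1, 14.9 and 13.5 FPKM across the controls against 6.85, 6.93 and 7.12 FPKM across the conditioned libraries, with no overlap. Igfbp2 had 143, 152 and 160 FPKM across the controls against 84.3, 83.4 and 84.4 FPKM across the conditioned libraries. Igfbp2 and Nov were both lowest in replicate 1 and highest in replicate 3 of the controls, whereas Piezo2 and Sema3c had their highest control value in replicate 1. The other members, whose own differences were small, had neighbours at smaller distances. These were Hoxc10, Psmc1 and Hs6st1 for Cyr61 (distances 0.010 to 0.013), Gsdmd, Usp36 and Pabpc1 for Ctgf (0.017 to 0.019), Rps6ka4, Fcf1 and Ints11 for Wisp1 (0.018 to 0.021), and Txnrd1, Nectin1 and Npdc1 for Wisp2 (0.012 to 0.014). None of these 12 genes passed in limma. The distance picks genes whose difference is like that of the member, so passing or not passing here restates the members' values.

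**Figure D4:**
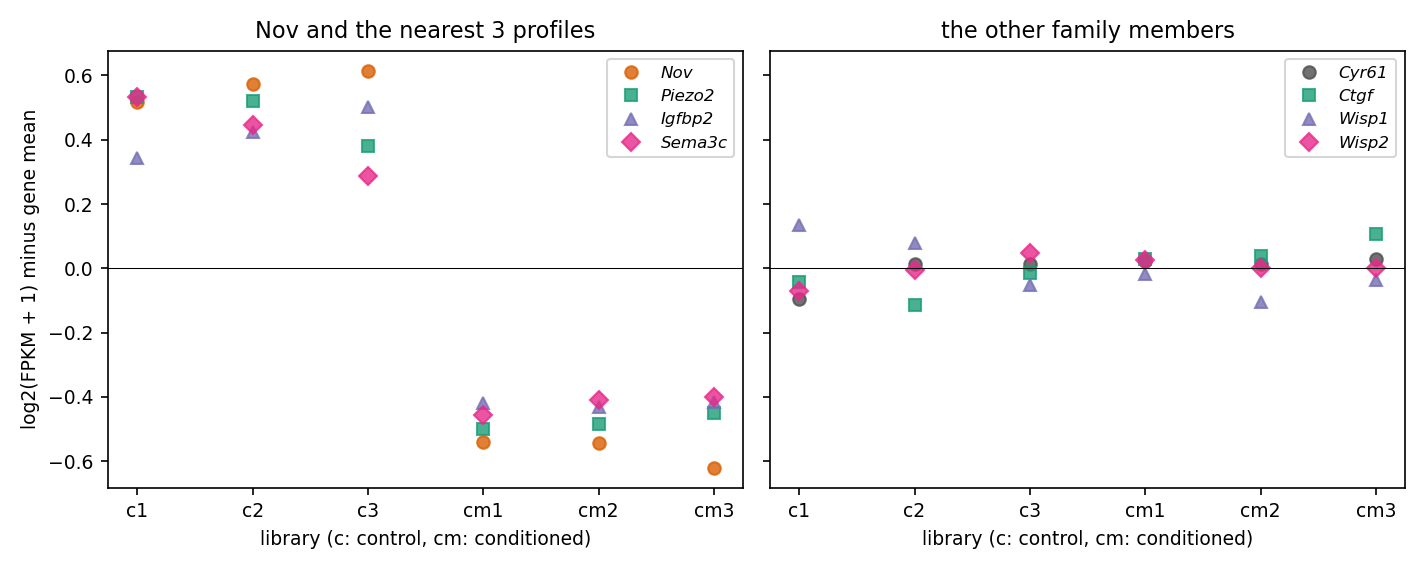
Log2(FPKM + 1) minus each gene's mean (y axis) in control libraries 1 to 3 (c1 to c3) and conditioned libraries 1 to 3 (cm1 to cm3). Left, Nov with Piezo2, Igfbp2 and Sema3c, picked for likeness to Nov, which step down together. Right, the other CCN members, which stay near 0.

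The genes beside the members on the chromosome were looked at after the members' values were known. The nearest tested neighbours of Nov, Tnfrsf11b (467.2 kb away) and Enpp2 (84.9 kb), were not lower: Enpp2, which makes lysophosphatidic acid, rose from 1.42 ± 0.115 to 2.22 ± 0.129 FPKM (n = 3 each, limma adjusted p = 0.012). Tnfrsf11b, the decoy receptor osteoprotegerin, had 10.8 ± 0.0679 and 12.0 ± 0.272 FPKM and did not pass. Neighbours of members with small differences passed too, while 6.53% of all genes tested passed. Any link between the differences of neighbours and members was not tested. Ada, adenosine deaminase, 70.6 kb from Wisp2, fell from 18.3 ± 2.00 to 13.7 ± 0.478 FPKM (n = 3 each, limma adjusted p = 0.018). Enpp1, which makes pyrophosphate, 39.2 kb from Ctgf, rose from 8.81 ± 0.584 to 10.8 ± 0.596 FPKM (n = 3 each, limma adjusted p = 0.042). With a library left out, limma's adjusted p for Enpp2 reached 0.059 without conditioned replicate 2 and 0.054 without conditioned replicate 3. That for Ada reached 0.063 without control replicate 3, 0.079 without conditioned replicate 1 and 0.085 without conditioned replicate 2. The call of Enpp1 was lost without each library except control replicate 1 (limma adjusted p up to 0.14). The nearest tested neighbours of Wisp1, Phf20l1 and Ndrg1, did not pass, nor did Znhit6 beside Cyr61, Stx7 beside Ctgf or Ywhab beside Wisp2. The lincRNA Gm17501 starts 0.3 kb from the start of Cyr61 on the other strand and had 11.1 ± 1.26 and 12.0 ± 0.767 FPKM, and it did not pass. Of the members, Ctgf alone overlaps another annotated gene, the opposite-strand transcript Gm15270. Gm15270 averaged 0.0626 FPKM in controls, against 0.0839 FPKM with conditioned medium. Since the strand setting of the counting is not given in the sources used here, fragments of such pairs cannot be told apart.

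The lists below were written with earlier results of these data known, so their counts are a description. Beside each of them stand 4.04% higher and 2.49% lower among all genes tested. Among receptors that CCN proteins are known to bind, 1 of 10 tested genes rose, 1 fell and 8 did not pass. Their median log2 difference was 0.06 against 0.01 for all genes tested. Itga5, the fibronectin receptor chain, rose from 107 ± 2.55 to 125 ± 1.05 FPKM (0.23 ± 0.03 SE, limma adjusted p = 0.0049). Itgb3, partner of the alpha-v chain, fell from 12.9 ± 0.169 to 11.2 ± 0.220 FPKM (limma adjusted p = 0.026). The chains Itgb1 (384 and 399 FPKM), Itgb5 (165 and 179 FPKM) and Itgav (33.5 and 34.9 FPKM) did not pass. The same held for the proteoglycan Sdc4 (25.9 and 29.7 FPKM), the endocytic receptor Lrp1 (263 and 257 FPKM) and Notch1, which Nov can bind (4.33 and 4.09 FPKM). Itga6, at 0.542 and 0.432 FPKM, was below the level tested.

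Of 8 tested matrix and growth factor partners, 1 rose, 2 fell and 5 did not pass, with a median of -0.16. Decorin (Dcn), a collagen-binding proteoglycan that Wisp1 binds, fell from 11.9 ± 0.478 to 8.44 ± 0.705 FPKM (limma adjusted p = 0.0047), while biglycan (Bgn), the other such partner, had 838 and 822 FPKM and did not pass. The growth factor Igf1 fell from 4.53 ± 0.740 to 2.84 ± 0.0650 FPKM (limma adjusted p = 0.016), and the angiogenic factor Vegfa, which Ctgf can bind, rose from 15.9 ± 0.900 to 19.2 ± 0.556 FPKM (limma adjusted p = 0.019). Fibronectin (Fn1) had 1670 and 1850 FPKM and did not pass (limma adjusted p = 0.057, 0.00079 to 0.21 over the alternatives).

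Of 16 tested Hippo pathway and TEAD genes, which act upstream of Cyr61 and Ctgf, 1 rose, 0 fell and 15 did not pass (median 0.01). Yap1 had 21.1 ± 0.106 and 23.6 ± 0.172 FPKM, a log2 difference of 0.15 ± 0.03 SE (limma adjusted p = 0.039), while its paralogue Wwtr1, which encodes TAZ, had 38.6 and 38.4 FPKM and Tead1 had 23.7 and 25.8 FPKM. Of 19 tested YAP/TAZ targets outside the family, 3 rose, 2 fell and 14 did not pass (median 0.02). Ankrd1, a cardiac and muscle ankyrin repeat protein, rose by 0.65 ± 0.04 SE from 42.1 ± 1.21 to 66.6 ± 0.746 FPKM (limma adjusted p = 2.5e-05). F3, tissue factor, rose by 0.69 ± 0.05 SE, and Crim1, a transmembrane protein with an IGFBP module, by 0.31 ± 0.03 SE. Igfbp3, an IGF-binding protein at 2.08 and 1.05 FPKM, fell by 0.58 ± 0.10 SE. Cyr61 and Ctgf, at 0.04 and 0.12, lay within the range of the 14 targets that did not pass.

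Of 20 tested targets of serum response factor and its MRTF partners, 8 rose, 0 fell and 12 did not pass (median 0.13). Among all genes tested 4.04% rose and 2.49% fell, and the list was written with earlier results known. The actin regulator Lmod1 rose by 0.60 ± 0.06 SE, the adhesion protein Vcl by 0.39 ± 0.04 SE and the smooth muscle myosin Myh11 by 0.31 ± 0.04 SE. Srf itself rose from 29.7 ± 1.59 to 37.1 ± 2.63 FPKM (limma adjusted p = 0.020). Acta2, smooth muscle actin, had 2190 and 2320 FPKM and did not pass. Of 21 tested immediate early genes, the class to which Cyr61 belongs, 1 rose, 6 fell and 14 did not pass (median -0.12). The same shares of all genes tested stand beside these counts. Egr3, Nr4a1 and Egr2, nuclear factors induced by growth signals, fell by 0.79 ± 0.09 SE, 0.53 ± 0.05 SE and 0.43 ± 0.05 SE, and Fosl2, an AP-1 subunit, rose by 0.40 ± 0.04 SE. Egr1 fell from 83.7 ± 3.41 to 72.2 ± 1.18 FPKM (limma adjusted p = 0.017).

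Of 12 tested TGF-beta pathway genes, 1 rose, 2 fell and 9 did not pass (median -0.05). The receptor Tgfbr2 fell by 0.32 ± 0.03 SE, the co-receptor Tgfbr3 rose by 0.44 ± 0.07 SE and the signal transducer Smad3 fell by 0.19 ± 0.04 SE. The ligands Tgfb1 (7.57 and 6.54 FPKM) and Tgfb2 (12.1 and 11.5 FPKM) did not pass. Of 19 tested TGF-beta/SMAD targets, 1 rose, 6 fell and 12 did not pass (median -0.05), against 4.04% higher and 2.49% lower among all genes. Periostin (Postn), itself matricellular, fell by 0.41 ± 0.03 SE, the collagen chain Col1a2 by 0.36 ± 0.03 SE and the early-response repressor Klf10 by 0.37 ± 0.07 SE.

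Of 7 tested Wnt/beta-catenin targets, 0 rose, 2 fell and 5 did not pass (median -0.12), against 2.49% lower among all genes. The R-spondin receptor Lgr5 fell from 7.38 ± 0.503 to 4.05 ± 0.197 FPKM (-0.73 ± 0.06 SE, limma adjusted p = 3.1e-04), and the cyclin Ccnd1 fell by 0.15 ± 0.03 SE. Axin2, the most used Wnt readout, had 0.628 ± 0.127 and 0.294 ± 0.0745 FPKM and was below the level tested.

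Other proteins with an IGFBP module had 1 higher, 4 lower and 6 not passing of 11 tested (median -0.07). Igfbp2 fell by 0.84 ± 0.04 SE (limma adjusted p = 2.1e-05), and Igfbp3 and the secreted protease Htra3 fell by 0.58 ± 0.10 SE and 0.28 ± 0.05 SE. Other matricellular proteins had 1 higher, 5 lower and 9 not passing of 15 tested (median -0.04). Spp1, osteopontin, rose from 68.3 ± 3.71 to 118 ± 2.46 FPKM (0.78 ± 0.04 SE). The elastic fibre protein Fbln5 and the thrombospondin Thbs4 fell by 0.32 ± 0.03 SE and 0.37 ± 0.07 SE. Over all 11 lists, some of which share genes, 18 of 144 tested genes rose and 28 fell, against 4.04% and 2.49% of all genes. The count of lower list genes was 15 without control replicate 2, 15 without conditioned replicate 1, 14 without conditioned replicate 2 and 17 without conditioned replicate 3. The lists were written with earlier results of these data known, so these counts describe the lists and support no direction.

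**Figure D5:**
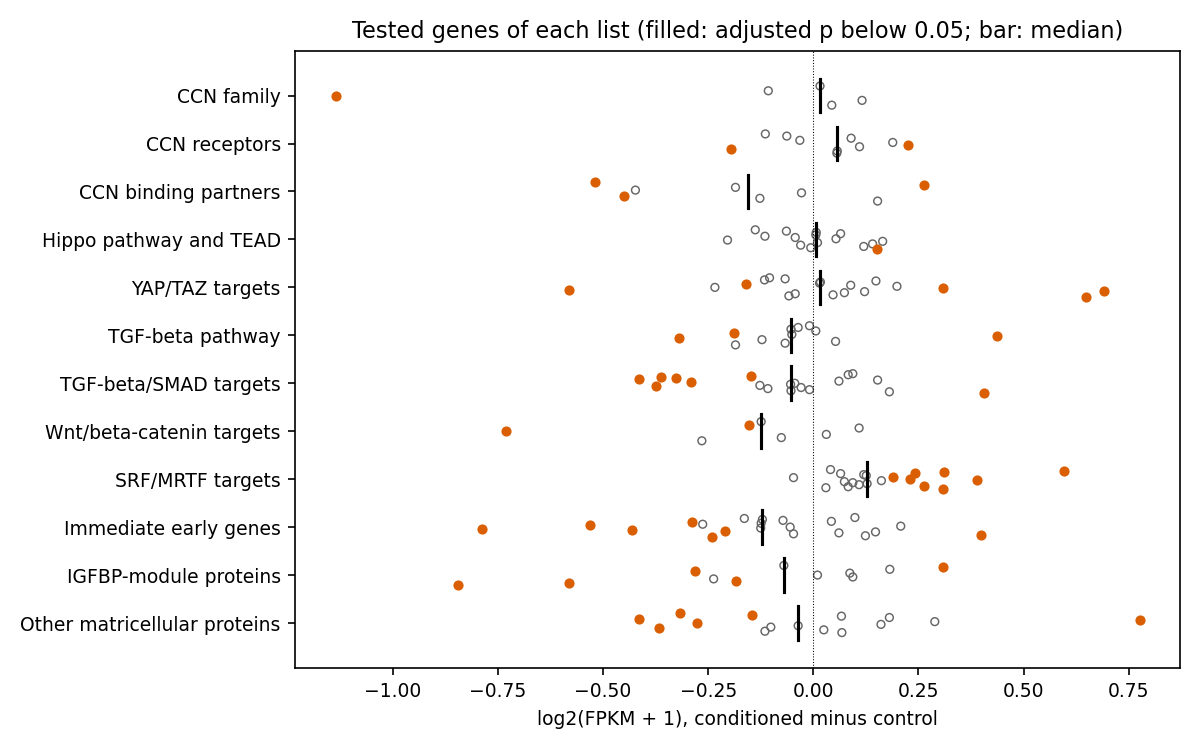
Log2 difference (x axis, conditioned minus control) of each tested gene in the CCN family and 11 gene lists (rows); filled points had an adjusted p below 0.05 in limma and bars mark the list median. Nov, at -1.14, lies further from 0 than any gene of the lists.

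Several of these calls did not hold when a single library was left out (limma adjusted p over all genes tested). Those of Yap1 (highest adjusted p without a library 0.13) were lost without any of the 6 libraries in turn. Those of Egr1 (up to 0.084), Smad3 (0.15), Itgb3 (0.11) and Ccnd1 (0.14) were lost without each library except control replicate 1. The call of Vegfa (0.079) was lost without control replicate 2 or any conditioned replicate, and those of Igf1 (0.068), Htra3 (0.065) and Srf (0.066) without control replicate 2 or conditioned replicate 1 or 2. Klf10 (0.067) lost its call without control replicate 2 or conditioned replicate 1 or 3, Thbs4 (0.069) without control replicate 3 or conditioned replicate 1 or 2, and Igfbp3 (0.068) without conditioned replicate 2. The log2 difference of Nov, which the choice of the family used, ran from -1.19 to -1.11 over the 15 alternatives.

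Tendon lineage genes were present, and the lists for other cell types held both genes near 0 and genes above 1 FPKM. Scx averaged 13.2 ± 0.551 FPKM in controls against 11.5 ± 0.433 FPKM with conditioned medium, and the surface marker Pdgfra had 34.0 and 38.3 FPKM. Tppp3, the gene of the sort, was low in both groups (0.903 ± 0.166 and 0.908 ± 0.184 FPKM). Of 7 tested tendon and lineage markers 4 fell, 0 rose and 3 (Scx, Pdgfra and Mkx) did not pass, against 2.49% lower among all genes. Mkx had 1.38 and 1.39 FPKM. Those that fell were Thbs4, Fmod by 0.46 ± 0.04 SE, Col1a1 by 0.33 ± 0.03 SE, and Tnmd by 0.41 ± 0.07 SE, whose call was lost without control replicate 1 or 3 or conditioned replicate 1 or 3 (limma adjusted p up to 0.065). The summed level of these markers, most of it Col1a1 (3340 and 2660 FPKM), ran from 3510 to 3590 FPKM across controls and from 2790 to 2870 FPKM across conditioned libraries. The neuron list summed to 23.3 to 26.1 FPKM across controls and 17.7 to 18.3 FPKM across conditioned libraries, most of it Tubb3, which fell by 0.43 ± 0.05 SE. Of the 14 genes listed, Rbfox3, Tac1, Pou4f1 and Snap25 had no entry. Among the 10 with an entry, 4 were below 0.1 FPKM in every library. Glial markers summed to 3.41 to 4.08 and 2.25 to 3.48 FPKM, with 3 of 8 below 0.1 FPKM throughout, Sox10 among them, and S100b at 2.42 and 1.50 FPKM. Macrophage markers summed to 6.71 to 7.92 and 6.69 to 7.02 FPKM. Of these 4 of 8 were below 0.1 FPKM throughout, Ptprc among them, while Cd14 (2.84 and 3.19 FPKM), Lyz2 (2.68 and 1.79 FPKM) and Cd68 (1.39 and 1.62 FPKM) were not. Of 8 mural and muscle markers listed, 5 had an entry, and the muscle genes Myod1, Pax7 and Myf5 had none. Those 5 summed to 20.3 to 20.9 and 18.4 to 18.5 FPKM. While 0 of 5 were below 0.1 FPKM throughout, Kcnj8 averaged only 0.0212 and 0.0515 FPKM. Notch3 (9.78 and 8.35 FPKM), Cspg4 (6.70 and 7.11 FPKM) and Des (3.12 and 2.41 FPKM) were the highest. Endothelial markers summed to 5.76 to 6.55 and 4.43 to 4.87 FPKM. Tie1 had no entry, and 4 of the 6 with an entry were below 0.1 FPKM throughout, Pecam1 among them. Most of the sum was Tek, which passed as lower (limma adjusted p = 0.023, up to 0.084 without control replicate 1 or 2 or any conditioned replicate). The part of these marker differences in the level of Nov was not tested, and in bulk RNA fewer cells of a type and less RNA per cell cannot be told apart.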

How the data were processed

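Bulk RNA-seq of 3 control and 3 conditioned libraries was analysed from FPKM values that the authors computed and deposited for 24413 genes. CASAVA, HISAT2 2.0.5 and mm10 are listed, per the submitters' processing notes, with no role for any. For the counting program, strand setting and filters the answer is: not given in the sources used here. The median ratio of each library to the gene means was 1.004 in all 6, so the deposited values were already balanced between libraries. Within genes the values were whole multiples of 1 fragment (tolerance 0.01 fragment, 24413 of 24413 genes), which gave fragment counts of 18772497 to 26058344 per library; at this depth members other than Wisp3 had at least 1064 fragments. The gene lengths so implied equalled the GENCODE M21 exon union for 22313 genes.

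The 11678 genes averaging 1 FPKM or more entered a fit by limma 3.58.1 (R 4.3.3) on log2(FPKM + 1), a scale that understates changes of low genes, with a trended robust prior, two-sided, no covariate and a threshold of 0.05 on Benjamini-Hochberg adjusted p. Other steps used Python 3.11.15, numpy 2.4.6, pandas 2.3.3 and matplotlib 3.10.9. The fit was also run on simulated data with a preset spread between libraries, which does not check the calls made here. Family members and the lists around them were chosen with earlier results of these data known. Named genes were the members, the 3 nearest profiles of each, up to 4 passing genes per list with the largest difference, and a fixed set of regulators and receptors. Alternatives varied the pseudocount, filter, scaling, variance model, replicate block, libraries left out, and voom on recovered fragments. Where entries shared a symbol the one with the highest mean kept it, and the other 11 carried their identifier. Genomic neighbours were added after the values were seen. Some named genes are not reported here.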

Additional observations from a re-analysis of the deposited data

How the results depend on the processing

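The members' differences chose the family, so their values are a description. Over 15 alternatives Nov ran from -1.19 (voom on recovered fragments) to -1.11. Wisp2 was -0.01 without control replicate 1. Quantile normalization gave -0.08 for both Cyr61 and Wisp2. Each setting's count is a separate total. Higher genes numbered 472, against 327 with no low-value filter, 259 with the replicate block and 652 by voom. They numbered 265 to 426 when a library was left out, fewest without conditioned replicate 2 (265), conditioned replicate 1 (274) or control replicate 2 (310). Lower genes numbered 291, against 165 with no low-value filter, 131 with the replicate block, 477 by voom, and 129 to 252 without a library (129, 138, 152 and 170 without conditioned replicate 2, conditioned replicate 1, control replicate 2 and conditioned replicate 3). Lower genes of the lists numbered 28, and 18 with no filter, 13 with the replicate block, 37 by voom and 14 to 30 without a library. Same-numbered libraries did not deviate together (correlations of -0.0948, -0.008 and -0.0476), so the numbers were not taken as pairs. Of 52 named genes outside the family that passed, 27 kept their call in every alternative that tested them (Egr3 in 14 of 15, being under the 5 FPKM filter) and 0 reversed. The causes of these changes were not tested. Depth limits only Wisp3 in the family.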
